A study of Mus musculus with 12 samples.

Results

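The genes described here are 10 receptor genes of natural killer (NK) cells, Ncr1, Klrb1c, Klra1, Klra4, Klra7, Klra8, Klre1, Klrc1, Klrk1 and Klrd1, out of 31053 genes in the table of unique molecular identifier (UMI) counts. They were taken from a fixed list and not chosen by their values here, although earlier results of these data were known when the list was made. The counts come from 10x Genomics single-cell RNA-Seq of CD45+ cells that were enriched with CD45 microbeads from MC38 tumors on day 17 after implantation. MC38 is a mouse colon adenocarcinoma line. The 12 C57BL/6 mice formed 4 groups of 3, which received vehicle for 7 days, vehicle for 16 days, or the EZH2 inhibitor PF-06821497 at 100 mg/kg daily for 7 days or for 16 days. All of the mice carried the tumor, and no genotype other than the strain is given. Barcodes carry a library number from 1 to 12, and GEO's labels do not tie these numbers to mice or groups. No map was drawn from the order or size of the libraries. The table was therefore treated as 1 pooled sample, no treated cells were compared with vehicle cells, and no p-value was computed. Intervals below are at 95% and cover counting error only.

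NK cells are innate lymphocytes that kill stressed or transformed cells, and they weigh signals from activating and inhibitory receptors instead of using 1 rearranged antigen receptor. Ncr1 encodes NKp46 and Klrb1c encodes NK1.1, which are activating receptors used to define NK cells in C57BL/6 mice. The Ly49 receptors bind class I major histocompatibility molecules and related proteins. Klra1 (Ly49A) and Klra7 (Ly49G) are inhibitory, and Klra4 (Ly49D) and Klra8 (Ly49H) are activating. Each NK cell displays only some of the Ly49 receptors. Klrd1 encodes CD94, which pairs with the inhibitory chain NKG2A (Klrc1) or with activating NKG2 chains to recognize Qa-1. Klre1 encodes a related lectin-like chain, and Klrk1 encodes the activating receptor NKG2D, which T cells can also carry.

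Of the 10 genes, 9 lay in 1 cluster of chromosome 6, the NK gene complex, between positions 128778485 and 130386874 of GRCm38 (1608 kb). The 4 Ly49 genes filled 343 kb of it, at 130363917 to 130386874 for Klra1, 130043731 to 130067271 for Klra4, 130218605 to 130233322 for Klra7 and 130115226 to 130129898 for Klra8, all on the minus strand. Klrb1c was at 128778485 to 128789215, Klre1 at 129577905 to 129585827, Klrd1 at 129591782 to 129598775, Klrk1 at 129610323 to 129623864 and Klrc1 at 129666015 to 129678973. Ncr1 stood apart on chromosome 7, at 4337724 to 4345164 on the plus strand. Klrb1c overlaps a second annotated gene on its strand, Gm44511, which had 0 UMIs in NK cells. The library reads only the 3' end of a transcript, so near-identical 3' ends can lose or exchange reads. In the last 500 bases of their annotated transcripts, the share of 50-base windows found in another gene was 56.3% for Klrc1 (shared with Klrc2), 27.5% for Klra7 (with Klra13-ps), 13.1% for Klra8 (with Klra9 and 4 others), 5.77% for Klra1 and 4.66% for Klra4 (with each other). It was 0% for Ncr1, Klrb1c, Klre1, Klrk1 and Klrd1. The counts of Klrc1 and Klra7 are the most uncertain for this reason.

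Promoter windows of RefSeq (GRCm38.p6, 250 bases before to 50 bases after a transcript start) were found for 9 of the 10 genes. They were searched on both strands for the letters TCACAC (T-box factors such as Eomes and T-bet), TGTGGT (RUNX factors) and GGAAGT (ETS factors). These letters occurred in 14.5%, 16.8% and 23.8% of the 32851 windows of all genes. Windows of 3 of the 9 genes held the T-box letters (Ncr1, Klra1 and Klre1), 6 held the RUNX letters (Ncr1, Klrb1c, Klra1, Klre1, Klrc1 and Klrk1) and 1 held the ETS letters (Klrb1c). Counted by window, 5, 7 and 1 of the 13 windows of these genes held them. A match describes these letters only. The windows below show an NK-restricted gene with matches (Ncr1), 2 Ly49 genes that were often found in the same cells and have none (Klra4 and Klra8), and a gene shared with T and dendritic cells (Klrk1). They lie at chr7:4337465-4337764 (plus strand), chr6:130067222-130067521, chr6:130129849-130130148 and chr6:129623815-129624114 (minus strand), and capitals mark the RUNX and T-box letters on either strand.
Ncr1: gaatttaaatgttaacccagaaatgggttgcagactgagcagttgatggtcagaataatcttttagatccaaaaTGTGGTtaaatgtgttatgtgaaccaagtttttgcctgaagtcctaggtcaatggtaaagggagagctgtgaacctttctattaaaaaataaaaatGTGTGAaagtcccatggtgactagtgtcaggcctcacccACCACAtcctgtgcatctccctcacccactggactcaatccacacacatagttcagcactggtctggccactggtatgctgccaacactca
Klra4: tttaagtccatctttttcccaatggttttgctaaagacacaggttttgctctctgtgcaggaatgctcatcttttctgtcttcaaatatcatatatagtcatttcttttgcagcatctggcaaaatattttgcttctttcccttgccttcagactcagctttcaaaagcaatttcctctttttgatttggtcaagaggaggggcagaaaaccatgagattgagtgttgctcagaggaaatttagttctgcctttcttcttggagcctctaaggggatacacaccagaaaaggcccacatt
Klra8: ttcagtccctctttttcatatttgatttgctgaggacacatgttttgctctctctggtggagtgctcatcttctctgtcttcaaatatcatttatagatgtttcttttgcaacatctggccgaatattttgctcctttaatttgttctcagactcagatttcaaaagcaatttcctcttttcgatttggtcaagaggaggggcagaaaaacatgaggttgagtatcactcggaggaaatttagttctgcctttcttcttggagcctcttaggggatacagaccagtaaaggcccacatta
Klrk1: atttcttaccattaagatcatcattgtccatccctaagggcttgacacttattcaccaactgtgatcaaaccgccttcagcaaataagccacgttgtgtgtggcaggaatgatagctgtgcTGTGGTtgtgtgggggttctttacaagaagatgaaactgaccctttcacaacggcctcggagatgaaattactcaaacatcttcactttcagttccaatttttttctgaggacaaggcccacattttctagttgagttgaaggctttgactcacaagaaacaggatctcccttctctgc
In the Ncr1 window the RUNX letters began 176 and 41 bases before the start and the T-box letters 80 bases before it.

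Of 140639 barcodes, 128912 passed the limits on genes and mitochondrial UMIs. Classes were gated on lineage genes that are none of the 10, which gave 624 NK cells, 3326 CD8 T cells, 60 gamma delta T cells, 683 CD4 T cells and 1146 dendritic cells. NK cells had at least 1 UMI of Nkg7, UMIs of at least 2 of 8 further genes (Gzma, Prf1, Eomes, Txk, Il2rb, Xcl1, Ccl5 and Styk1), and none of Cd3d, Cd3e, Cd3g, Trac, Cd8a, Cd8b1, Cd4, Cd79a, Ms4a1, Flt3, Csf1r, Adgre1 or Csf3r. T cells had at least 2 UMIs of the Cd3 genes with Cd8a or Cd8b1, with Cd4, or with Trdc and a Tcrg constant gene. Dendritic cells had Flt3 and 1 of Zbtb46, Xcr1, Clec9a, Cd209a, Siglech or Ccr7. Median depth was 2012 UMIs in NK cells, 3148 in CD8 T cells, 2426 in gamma delta T cells, 3512 in CD4 T cells and 5792 in dendritic cells. Levels are therefore given as UMIs per 1000000 UMIs of the class (CPM), which are scaled by the summed UMIs of the class. Whether CPM still varies with depth per cell was not tested. Of the genes that the NK gate could use, Gzma was found in 55.9% of NK cells and 11.4% of CD8 T cells, and Prf1 in 47.4% and 26.9%. Txk was in 56.1% and 23.6%, Xcl1 in 55.6% and 26.1%, and Styk1 in 17.1% and 2.95%. Il2rb was in 80.6% and 68.3% and Eomes in 29.2% and 21.9%. Ccl5 went the other way, with 62.5% and 75.4%. The gate itself raises the shares of these genes in NK cells. Of T cell genes that the gate left free, Trbc1 had a UMI in 50.8% of NK cells and Trbc2 in 29.2%, against 53.8% and 82.4% of CD8 T cells, and Trdc in 7.37% of NK cells. The NK, T and dendritic classes held 5839 of the kept cells. Background classes were 47343 macrophages (Csf1r and Adgre1), 1924 neutrophils (Csf3r and S100a8) and 206 B cells (Cd79a and Ms4a1), all without UMIs of the Cd3 genes. The gates were strict and left 73600 of the kept cells (57.1%) in none of these classes. Those cells held between 32.5% (Klra8) and 57.5% (Klrd1) of each gene's UMIs in kept cells. Macrophages held between 2.59% (Klrc1) and 25.6% (Klrk1). Total UMIs per library ranged from 21649947 to 158760328 (median 73715428.5), and NK cells from 4 to 221 per library (median 25.5), with 35.4% of them in library 5 and 157 of them in library 6. Of the barcode sequences, 2261 occurred in more than 1 library. These included 26 NK cells, and no sequence was an NK cell in 2 libraries.

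The 10 genes fell into 2 sets by their levels in NK, CD8 T, CD4 T and dendritic cells. Ncr1, Klrb1c and the 4 Ly49 genes were at 86.8 CPM or more in NK cells and at 5.86 CPM or less in CD8 T, CD4 T and dendritic cells. This split did not hold in the pooled gamma delta T cells, with 72.9 CPM of Klra7, 51.4 of Klra1 and 34.3 of Klrb1c. These values rest on 4, 4 and 5 of 60 cells. Without library 11 NK cells were 27.2 times gamma delta T cells for Klra7 and 6.20 times for Klra1. Klre1, Klrc1, Klrk1 and Klrd1 were shared with T cells, and Klrk1 and Klrd1 also with dendritic cells. A gene was called higher where its CPM was at least 4 times that of the other class. Only genes with at least 10 UMIs in both classes together were tested. For this call, fewer than 3 UMIs in the other class were set to 3, which was 12.9 CPM in gamma delta T cells. Klrg1, at 34.5 CPM in NK and 4.29 CPM in gamma delta T cells, was therefore not called. Genes too low in NK cells to reach 4 times this floor could not be called, which lowers the share of all genes called there. None of the 10 genes was so low. Against CD8 T cells, 6 of the 10 genes were called (Ncr1, Klrb1c, Klra1, Klra4, Klra7 and Klra8), where 1.62% of all genes tested were. Against gamma delta T cells 5 were called (Ncr1, Klrb1c, Klra4, Klra8 and Klre1), where 0.568% of all genes were. Without library 1 or 7 the ratio of Klre1 fell below the limit there (3.93 and 3.94). Against CD4 T cells 9 were called, all but Klrc1, where 2.2% were. Against dendritic cells 9 were called, all but Klrk1, where 5.03% were.

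**Figure D1:**
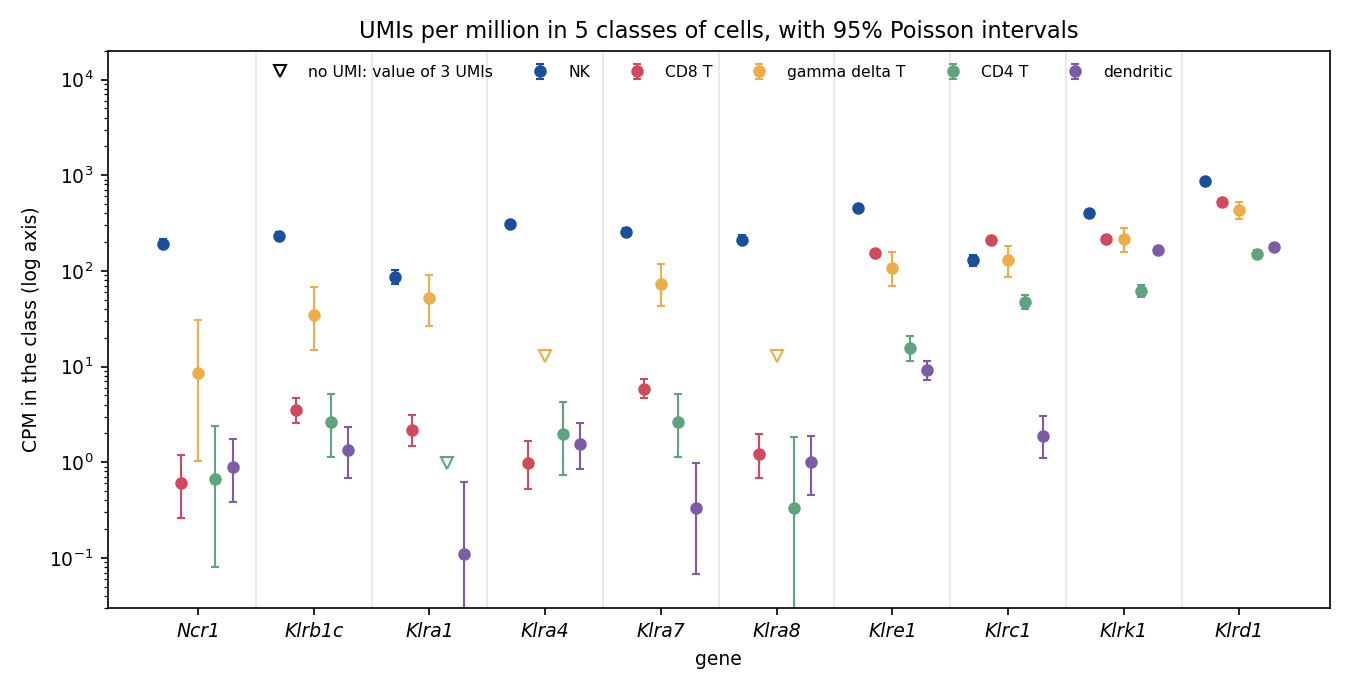
CPM of the 10 genes (log axis) in 5 classes of cells, with 95% Poisson intervals, and open triangles at the value of 3 UMIs where a class had none. The NK points lie above the other classes for Ncr1, Klrb1c and the Ly49 genes, with an interval that overlaps that of gamma delta T cells for Klra1, and only for Klrc1 do CD8 T cells lie above NK cells.

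Ncr1 had a UMI in 30.1% of NK cells (26.5 to 33.9%, 188 cells) and a level of 192.6 CPM. Over the 7 libraries with at least 20 NK cells, its level was 98.9 CPM at the lowest, 175.7 at the median and 241.7 at the highest. In CD8 T cells it was at 0.601 CPM, and 8 of 11 libraries had no UMI. The ratio of NK to CD8 T cells was 320 (161 to 748), and NK cells were higher in all 7 libraries that could be compared. Library 5 held 5 of the 8 UMIs in CD8 T cells, and without it the ratio was 793.9 (268.4 to 3877). Gamma delta T cells were at 8.57 CPM, from 2 UMIs in 1 cell, which was 14.3 times CD8 T cells (1.47 to 71.4). Dendritic (0.884 CPM), CD4 T (0.659) and CD8 T cells did not separate beyond their counting intervals. No UMI of Ncr1 was found among 206 B cells, which by the limit of 3 counts allows a share of cells with a UMI of up to 1.46%.

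Klrb1c, the gene of NK1.1, was found in 39.3% of NK cells (35.4 to 43.2%) at 230.7 CPM. Its level across libraries ran from 114.7 over a median of 215.6 to 254.0 CPM. Next in order were gamma delta T cells with 34.3 CPM (5 of 60 cells), followed by CD8 T cells with 3.53, CD4 T cells with 2.64 and dendritic cells with 1.33 CPM. The interval of CD4 T cells overlapped those of both its neighbours in this order. NK cells were 65.3 times CD8 T cells (48.2 to 90.4) and 6.73 times gamma delta T cells (3.38 to 15.7). Library 5 held 32 of the 47 UMIs in CD8 T cells, and without it the first ratio was 171.5 (102.0 to 311). Without library 8 the second was 3.77 (1.89 to 8.79), below the limit of 4. The ratio to CD8 T cells was 34.6 in the libraries with UMIs of Y-linked genes (1 to 6) and 810.6 in those without (7 to 12), and libraries of both kinds were on the same side. Library 5 was among those with Y-linked UMIs, and neither ratio carries an interval. Libraries 1 to 6 held from 10793 to 20809 Y-linked UMIs each and libraries 7 to 12 held 0, while the paper describes its mice as female. The source of the Y-linked UMIs was not tested.

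Of the inhibitory Ly49 genes, Klra1 was found in 10.9% of NK cells at 86.8 CPM and Klra7 in 24.5% at 256.9 CPM. Across the 7 libraries Klra1 ranged from 43.5 over a median of 104.0 to 152.6 CPM. Klra7 ranged from 122.6 over 228.9 to 726.6 CPM, and the highest library was library 3, where 55.9% of NK cells had a UMI. Both genes were also seen in gamma delta T cells, at 51.4 CPM for Klra1 and 72.9 for Klra7, from 4 of 60 cells each (6.67%, 1.85 to 16.2%), 1 of which had both. The ratio of NK to gamma delta T cells was 1.69 for Klra1 (0.938 to 3.34), which does not separate the classes, and 3.53 for Klra7 (2.18 to 6.11). Single libraries moved both. Without library 11 the ratios were 6.20 (2.08 to 30.4) and 27.2 (7.48 to 225), both past the limit of 4, and without library 8 they were 0.973 (0.540 to 1.93) and 1.97 (1.21 to 3.41). For Klra7 the ratio was 19.9 in the libraries with Y-linked UMIs and 2.48 in those without, which include library 11. Of its 17 UMIs in gamma delta T cells, only 2 lay outside library 11. In CD8 T cells Klra7 reached 5.86 CPM (1.26% of cells) and Klra1 2.18 CPM (0.541%). Klra1 had no UMI in 683 CD4 T cells, which makes NK cells at least 87.8-fold higher with CD4 T cells set to the limit of 3 UMIs over the class (at least 50.4-fold without library 8).

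Of the activating Ly49 genes, Klra4 was found in 30.4% of NK cells at 306.2 CPM and Klra8 in 26.6% at 211.7 CPM. Klra4 ranged over the libraries from 130.5 over 353.7 to 493.6 CPM, and Klra8 from 67.2 over 219.2 to 292.1 CPM. Neither had a UMI in the 60 gamma delta T cells, which by the limit of 3 counts allows a share of cells with a UMI of up to 5.0%. At the limit of 3 UMIs over that class, NK cells were at least 23.8-fold higher for Klra4 and at least 16.5-fold higher for Klra8. Without library 8 these bounds were 13.4 and 9.33. Levels in CD8 T, CD4 T and dendritic cells were 0.977, 1.98 and 1.55 CPM for Klra4 and 1.20, 0.330 and 0.995 CPM for Klra8, with overlapping intervals for each gene. For Klra4 library 9 held 4 of the 6 UMIs in CD4 T cells and library 11 held 6 of the 14 in dendritic cells, and without these libraries the ratio of NK cells moved from 154.8 to 398.8 against CD4 T cells and from 197.9 to 308.0 against dendritic cells. The ratio of NK to CD8 T cells was 313 (182 to 593) for Klra4 and 176 (107 to 311) for Klra8, which was 290.5 (151 to 641) without library 3. Klra4 was also found in cells that were neither NK nor T cells, and those values are given in the closing section.

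The NK cells of library 6 stood apart. Among the 7 libraries they had the lowest level of 9 of the 10 genes, all but Klrc1, and the summed level of the 10 genes was 1578 CPM there against a median of 3806 and a highest value of 4200 CPM. Median depth of NK cells in library 6 was 1251 UMIs, the lowest of the 7. The macrophage genes C1qa, C1qb, Apoe and Lyz2 together made up 9093 CPM of these cells, where the other 6 libraries ranged up to 2351 CPM and the median over all 7 was 1269 CPM. The part of depth and of macrophage RNA in the lower values was not tested. In library 6 the ratio of NK to CD8 T cells still had the direction of the pooled ratio for all 10 genes.

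**Figure D2:**
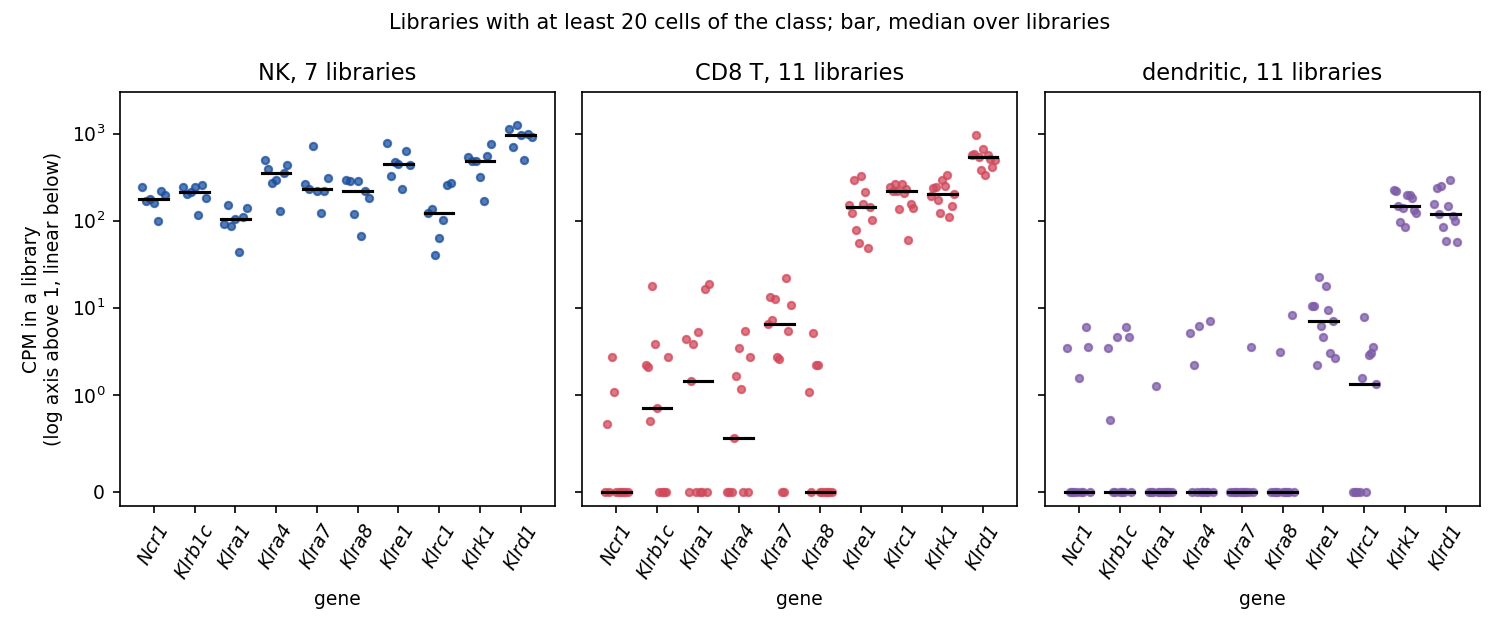
CPM of the 10 genes in single libraries with at least 20 cells of the class, for NK cells (7 libraries), CD8 T cells (11) and dendritic cells (11), on an axis that is logarithmic above 1 and linear below. Every library had UMIs of all 10 genes in NK cells, while Klrk1 and Klrd1 stayed above 50 CPM in every dendritic library shown.

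Klrd1, which encodes CD94, was found in 67.3% of NK cells (63.5 to 71.0%) at 863.9 CPM and in 61.1% of CD8 T cells (59.4 to 62.8%) at 529.8 CPM. The ratio of NK to CD8 T cells was 1.63 (1.54 to 1.73), and NK cells were higher in 7 of 7 libraries. Levels over the 7 libraries ran from 498.3 over 950.6 to 1270 CPM in NK cells, and over 11 libraries from 333.2 over 539.8 to 959.1 CPM in CD8 T cells, so the ranges overlap. Gamma delta T cells had 432.8 CPM (32 of 60 cells), dendritic cells 177.2 and CD4 T cells 151.0 CPM. The ratio of gamma delta T to CD8 T cells was 0.817 (0.664 to 0.994). In B cells 2 of 206 had a UMI (0.971%), and in macrophages 1.68% of 47343 cells did.

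Klrc1, the gene of NKG2A, was the 1 gene of the 10 whose level was higher in CD8 T cells than in NK cells. It was found in 125 of 624 NK cells (17.0 to 23.4%) at 129.6 CPM and in 39.2% of CD8 T cells (37.5 to 40.9%) at 208.5 CPM. The ratio of NK to CD8 T cells was 0.622 (0.539 to 0.714), with CD8 T cells higher in 6 of 7 libraries. The ratio was 0.386 in the libraries with Y-linked UMIs and 1.13 in those without, so the direction was not shared by both sets of libraries. NK levels varied from 39.9 over 120.9 to 267.6 CPM and CD8 T levels from 59.8 over 218.0 to 265.7 CPM. Gamma delta T cells were at 128.6 CPM, a ratio of NK to gamma delta T cells of 1.01 (0.686 to 1.53), which was 0.565 in the libraries with Y-linked UMIs and 1.93 in those without. CD4 T cells had 47.2 CPM. Against CD4 T cells, 2 of the 10 genes were called higher in CD8 T cells, Klre1 (10.0 times, 7.49 to 13.7) and Klrc1 (4.42 times, 3.74 to 5.27), where 0.386% of all genes were. Klrk1 (3.44 times) and Klrd1 (3.51 times) were just under the limit of 4. Without library 8 Klrc1 was at 3.84, Klrk1 at 4.39 and Klra7 at 6.22 times, and without library 9 Klrd1 was at 4.29 times.

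In CD8 T cells the partner gene Klrd1 was found more often in cells with Klrc1 than in cells without it. Of CD8 T cells with at least 1000 UMIs, Klrd1 was found in 79.6% of the 1276 with a Klrc1 UMI (77.3 to 81.8%) and in 52.1% of the others (49.8 to 54.4%). Thinned to 1000 UMIs a cell, so that depth is the same in all cells, the shares expected were 45.1% and 32.9%. In NK cells Klrd1 was found in 81.4% of the 113 cells with Klrc1 (73.0 to 88.1%) and in 74.7% of the others (70.1 to 78.9%), and these intervals overlap.

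Klre1 had 456.0 CPM in NK cells (55.0% of cells, 51.0 to 58.9%) and 155.0 CPM in CD8 T cells (25.2%). The NK level ran from 233.4 over 443.7 to 775.6 CPM over the libraries and was 2.94 times the CD8 T level (2.70 to 3.20), higher in 7 of 7 libraries. Gamma delta T cells had 107.1 CPM, CD4 T cells 15.5 and dendritic cells 9.17 CPM, and gamma delta T cells were at 0.691 times CD8 T cells (0.446 to 1.02). Klrk1, the gene of NKG2D, had 404.3 CPM in NK cells (50.8% of cells) and 214.2 CPM in CD8 T cells (39.0%), a ratio of 1.89 (1.73 to 2.05). Its NK level ran from 166.1 over 483.1 to 760.5 CPM. Gamma delta T cells (214.3 CPM, 18 of 60 cells) and CD8 T cells did not separate. Dendritic cells had 165.4 CPM, with an interval that overlapped that of gamma delta T cells, and CD4 T cells had 62.3 CPM.

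Dendritic cells shared Klrk1 and Klrd1 with the lymphocytes. Klrk1 had a UMI in 49.1% of dendritic cells (46.2 to 52.1%) and Klrd1 in 37.6% (34.8 to 40.5%). Klre1 followed with 5.93%, and the other 7 genes were in at most 0.960%. In the 11 libraries with at least 20 dendritic cells, Klrk1 ran from 84.0 over 145.5 to 223.2 CPM and Klrd1 from 57.6 over 119.0 to 289.7 CPM. Against macrophages, 6 of the 10 genes were called higher in dendritic cells, where 8.28% of all genes were. Klrd1 was 53.5 times higher (49.7 to 57.6), Klre1 16.7 times (12.8 to 21.6) and Klrk1 8.35 times (7.90 to 8.83), each in 11 of 11 libraries. The other 3 called, Ncr1, Klra8 and Klrc1, had at most 1.88 CPM in dendritic cells and rested on 8, 9 and 17 UMIs there. Dendritic cells were higher in 4, 2 and 6 of the 11 libraries and macrophages in 5, 5 and 4. Library 11 held 7 of the 9 UMIs of Klra8 in 1 cell, and without it the ratio fell from 4.53 to 1.13 (0.135 to 4.22). Without library 8 the ratio of Klrc1 was 3.97. Klrk1 was in 12.2% of macrophages at 19.8 CPM, while B cells had a UMI of it in 0.971%. Median depth was 7113 UMIs in macrophages and 1362.5 in B cells, and at 1000 UMIs a cell the shares expected for Klrk1 were 13.4% in dendritic cells, 2.21% in macrophages and 0.737% in B cells.

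The types of dendritic cells differed in Klrd1 and Klrk1 in the pooled libraries. A library held at most 16 Cd209a-positive and 13 plasmacytoid cells, so these types were not compared by library. In 74 Cd209a-positive cells Klrd1 was in 75.7% (64.3 to 84.9%) at 569.2 CPM. In 502 type 1 cells (Xcr1 or Clec9a) it was in 27.1% (23.2 to 31.2%) at 57.0 CPM and in 323 mature cells (Ccr7 and Fscn1) in 26.9% (22.2 to 32.1%) at 107.5 CPM. In 61 plasmacytoid cells Klrd1 was in 50.8% (37.7 to 63.9%) at 359.2 CPM, while Klrk1 was in only 11.5% of them (4.74 to 22.2%). Klrk1 was in 53.0% of type 1, 48.6% of Cd209a-positive and 49.8% of mature cells, with overlapping intervals. Its level was 1.45 times higher in Cd209a-positive than in type 1 cells (1.21 to 1.73). Nkg7 had a UMI in 2.49% of dendritic cells with Klrk1 (1.37 to 4.14%) and in 2.74% of those without (1.58 to 4.42%), and in 2.32% of those with Klrd1 and 2.80% of those without. Ncr1 was in 4 of 431 dendritic cells with Klrd1 and in none of 715 without it, with overlapping intervals. For both Klrk1 and Klrd1 the intervals of Nkg7, Gzma, Ncr1 and Prf1 all overlapped. For Klre1, Gzma was in 7.35% of its 68 cells (2.43 to 16.3%) and in 0.742% of the other cells (0.321 to 1.46%). Ncr1 (4.41% and 0.0928%) and Prf1 (5.88% and 0.186%) also had intervals apart there, while those of Nkg7 (7.35% and 2.32%) overlapped.

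**Figure D3:**
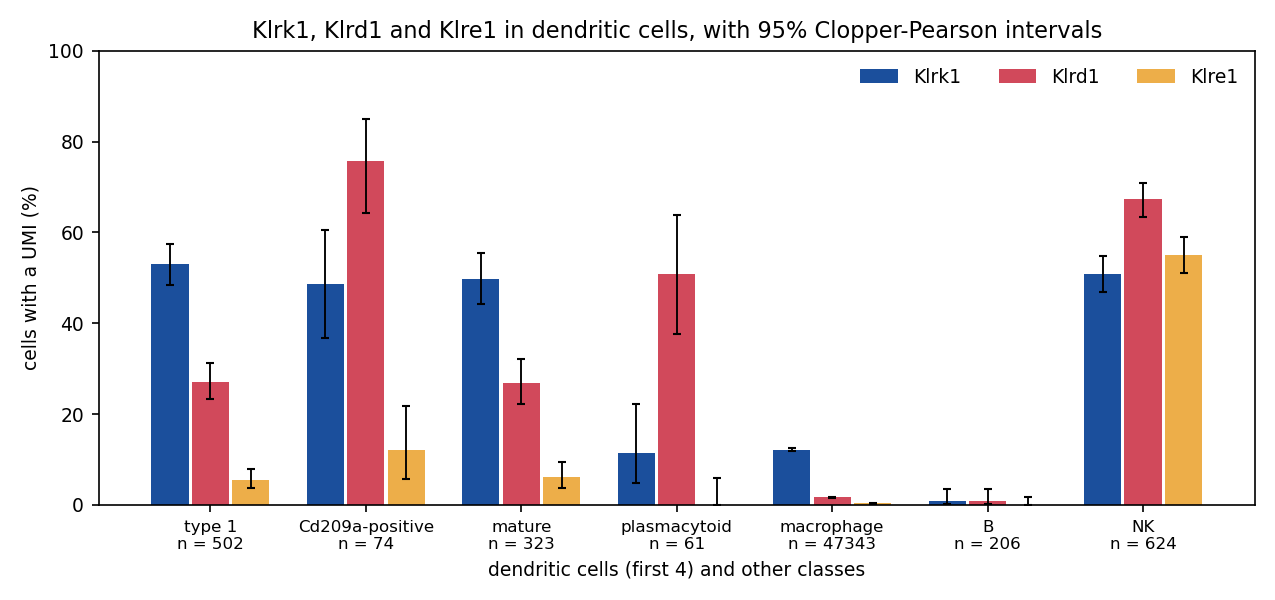
Share of cells with a UMI of Klrk1, Klrd1 or Klre1 in 4 types of dendritic cells, macrophages, B cells and NK cells, with 95% Clopper-Pearson intervals. Klrd1 is highest among dendritic cells in the Cd209a-positive type (75.7%), and Klrk1 is low in plasmacytoid cells (11.5%) beside the other 3 types.

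Single NK cells held several of the receptor genes. As deposited, the median number detected was 4 of 10, 54 of the 624 cells (8.65%) had none, and 2 cells had 9. In NK cells of at least 1000 UMIs (504 cells), 86.7% had at least 2 of the genes, and 67.0% were expected to at 1000 UMIs a cell. At the same depth the expected share was 20.7% in CD8 T cells, 20.1% in gamma delta T cells, 2.82% in CD4 T cells and 2.59% in dendritic cells. Of the 45 pairs of genes, 38 had the second gene more often in NK cells with the first than in those without it in the expectation for 1000 UMIs, against 48.4% of all pairs of the 3594 genes found in at least 10% of these cells. For 21 pairs, all in that direction, the intervals of the shares as deposited did not overlap, against 13.7% of all pairs. For 1 pair, Klra4 and Klrc1, they lay apart in the other direction, against 0.0302% of all pairs. In CD8 T cells 37 of 45 pairs were more often together (40.6% of all pairs of genes found in at least 7 of these cells, the number with Ncr1) and 21 had intervals apart in that direction (26.6% of all pairs). In dendritic cells 33 were more often together (32.1% of all pairs of detected genes) and 18 had intervals apart (14.6%). No chance test was made for these counts, and the cells come from libraries of unequal depth. Many of the dendritic pairs rest on very few cells. Of all 1146 dendritic cells, Klra1 and Klra7 were in 1 each, Klra8 in 2, Ncr1 in 4, Klra4 in 5 and Klrb1c in 7. A single dendritic cell held 8 of the 10 genes. Of all 3326 CD8 T cells, Ncr1 was in 7, Klra4 in 9, Klra8 in 11 and Klra1 in 18.

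The closest pairs were among the Ly49 genes. Klra8 was found in 51.6% of NK cells with Klra4 (43.6 to 59.5%) and in 19.0% of those without (14.9 to 23.5%), or 34.6% against 12.6% at 1000 UMIs. Both encode activating receptors. Klra7 was found in 58.7% of cells with Klra1 (45.6 to 71.0%) and in 23.4% of those without (19.5 to 27.6%), or 37.1% against 15.8% at 1000 UMIs, and both encode inhibitory receptors. Pairs of 1 inhibitory and 1 activating gene also went together, as with Klra7 in 42.9% of cells with Klra4 and 20.7% of those without. The Klra1 and Klra8 pair had overlapping intervals, with Klra8 in 36.5% (24.7 to 49.6%) and 28.3% (24.2 to 32.8%). No Ly49 gene of the 4 was found in 47.6% of all NK cells, exactly 1 in 23.1%, 2 in 19.9%, 3 in 8.17% and all 4 in 1.28%. A Ly49 gene was the only one of the 4 detected in 17.6% of the NK cells with Klra1, 27.9% of those with Klra4, 23.5% with Klra7 and 25.9% with Klra8. In cells thinned to 1000 UMIs these shares were 38.9%, 41.1%, 47.8% and 35.5%.

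**Figure D4:**
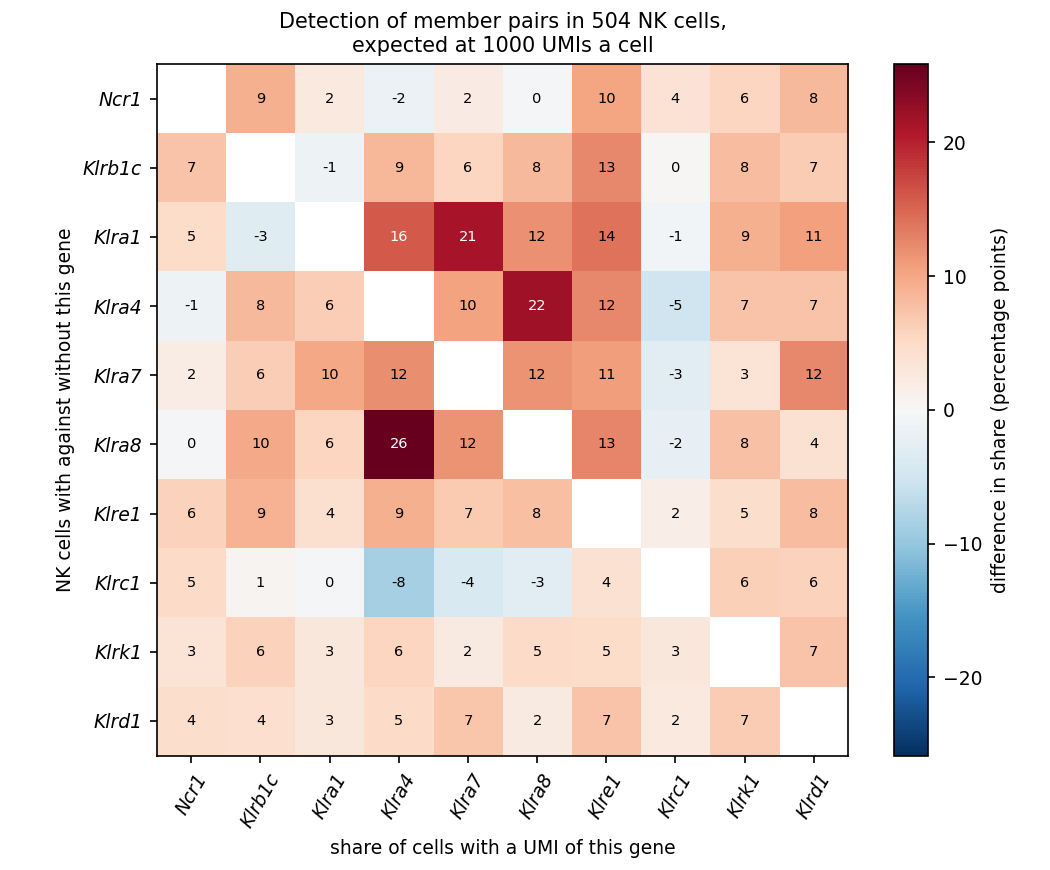
Difference in the share of 504 NK cells with a UMI of the column's gene, between cells with and without the row's gene, in percentage points expected at 1000 UMIs a cell. Klra4 with Klra8 and Klra1 with Klra7 are the strongest pairs, and the values of Klrc1 are negative for the 4 Ly49 genes.

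Ly49 genes were compared in NK cells with and without Klrc1. At least 1 of the 4 was found in 49 of 113 NK cells with a Klrc1 UMI (43.4%, 34.1 to 53.0%) and in 229 of 391 without one (58.6%, 53.5 to 63.5%). The difference was -15.2 percentage points (-25.2 to -4.76, Newcombe's interval). For Klra4 the shares were 20.4% (13.4 to 29.0%) and 35.3% (30.5 to 40.2%), and all 4 pairs of Klrc1 with a Ly49 gene were found together less often at 1000 UMIs. Leaving out single libraries gave differences between -25.0 and -12.5 points, but the intervals of the shares overlapped in 7 of these 12 cases, and also within the libraries with (42.9% against 57.1%) and without (44.0% against 64.6%) Y-linked UMIs and among NK cells with Eomes (60.7% against 71.0%). With cells thinned and grouped again at 1000 UMIs, Klrc1 was in 11.3% of cells with a Ly49 gene and 14.0% of those without, with overlapping intervals. Among the libraries left out, the difference was largest without library 6 (43.3% against 68.3%). It shrank to -4.33 points in the 160 NK cells without UMIs of Trbc1 and Trbc2, where 31 cells had Klrc1, and the intervals also overlapped where the NK gate asked only for Cd3d, Cd3e and Cd3g at 0 among T cell genes (40.0% against 50.8%) or for only 1 further gene (42.4% against 49.1%, -6.68 points).

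**Figure D5:**
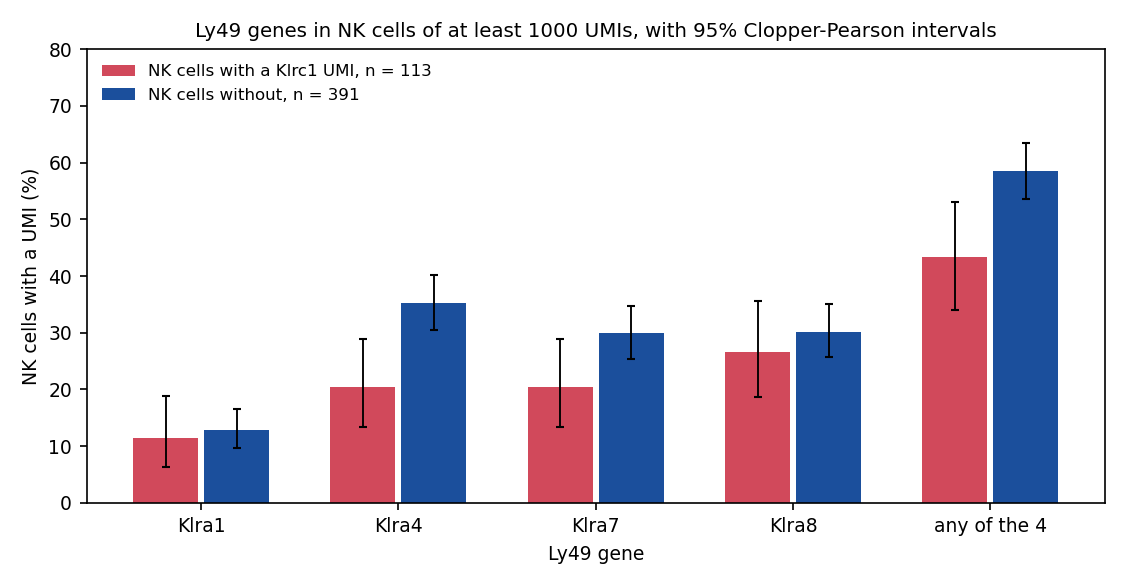
Share of NK cells of at least 1000 UMIs with a UMI of Klra1, Klra4, Klra7, Klra8 or any of them, in 113 cells with and 391 cells without a Klrc1 UMI, with 95% Clopper-Pearson intervals. The cells with Klrc1 are lower for every bar, and the intervals lie apart for Klra4 and for any of the 4 genes.

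Of 8 genes of NK cell maturation, 1 (Eomes) had intervals apart between NK cells with and without a Ly49 gene, and 0 after thinning. Over all genes found in at least 10 of these cells, 1.36% had intervals apart as deposited (0.961% higher with a Ly49 gene and 0.403% higher without) and 1.03% after thinning (0.29% and 0.742%), and S1pr5 did not reach 10 cells. Of 8 genes of group 1 innate lymphoid cells and residency, 3 did (Rora, Il7r and Cxcr6), all higher without a Ly49 gene, and 2 after thinning. At least 1 of the 4 Ly49 genes was found in 278 NK cells of at least 1000 UMIs, and none in 226. Klre1 was in 72.7% of the former (67.0 to 77.8%) and 47.3% of the latter (40.7 to 54.1%), and it was also higher with the cells thinned and grouped again at 1000 UMIs (44.8% against 28.1%). Eomes, a transcription factor of NK cells that also entered the gate, was in 37.8% (32.0 to 43.8%) and 20.8% (15.7 to 26.7%). Rora, a nuclear receptor of innate lymphoid cells, was in 6.47% and 23.9% with intervals that lay apart, and Il7r, the interleukin 7 receptor, in 4.68% and 12.8%. Cxcr6, a chemokine receptor of resident lymphocytes, was in none of the 278 cells and in 7.08% of the 226. These 3 genes were at higher levels in CD8 T cells (122.6, 238.9 and 190.3 CPM of Rora, Il7r and Cxcr6) than in NK cells (102.3, 57.7 and 20.2 CPM), and higher still in gamma delta T and CD4 T cells. Trbc1 or Trbc2, T cell receptor constant genes, had UMIs in 70.1% of NK cells with a Ly49 gene and 65.9% of those without, with overlapping intervals. In the 160 NK cells with neither, Rora was in 6.02% of cells with a Ly49 gene and 20.8% of those without, Il7r in 2.41% and 9.09%, and Cxcr6 in none of 83 and 2 of 77, and all 3 pairs of intervals overlapped. After thinning, the intervals of Eomes and Il7r overlapped and those of Rora and Cxcr6 did not. Cd27, Itgam, S1pr5, Zeb2, Cma1, Klrg1, Tbx21, Itga1, Tnfsf10, Inpp4b, Gpr183 and Itgae had overlapping intervals at both depths.

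Of 25 other NK receptor genes measured, 16 were in at least 5% of NK cells, namely Klra3, Klra5, Klra9, Klrb1a, Klrb1b, Klrb1f, Klrc2, Klrg1, Klri2, Cd244, Cd226, Cd160, Cd96, Fcgr3, Slamf7 and Cd7. Against CD8 T cells 7 of the 25 were called, against gamma delta T cells 4, against CD4 T cells 11 and against dendritic cells 13, where 1.62%, 0.568%, 2.2% and 5.03% of all genes tested were. The 7 were Klra3, Klra9, Klra17, Klrb1a, Klrb1b, Klrb1f and Klri2. Klra17 had a UMI in only 5 NK cells (4.31 times CD8 T cells, 1.31 to 12.7). Klra9 was at 118.9 CPM in NK cells and 13.8 times CD8 T cells (10.9 to 17.5). Klrc2, whose 3' end resembles that of Klrc1, was at 88.6 CPM in NK and 67.6 CPM in CD8 T cells (1.31 times, 1.09 to 1.56).

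Of the genes for adaptors and signalling proteins 12 were measured, of which 11 were in at least 5% of NK cells (Tyrobp, Hcst, Fcer1g, Cd247, Ptpn6, Sh2d1a, Sh2d1b1, Syk, Zap70, Vav1 and Inpp5d). Tyrobp (DAP12), the partner of Klra4 and Klra8, was in 86.9% of NK cells and 9.55 times the CD8 T level (9.04 to 10.1), and it was also in 99.5% of macrophages and 85.0% of dendritic cells. Fcer1g was in 87.5% and 8.94 times the CD8 T level, and in 99.7% of macrophages. Hcst (DAP10), the partner of NKG2D, was lower in NK than in CD8 T cells (0.655 times, 0.601 to 0.712). In all, 4, 2, 4 and 6 of the 12 were called against CD8 T, gamma delta T, CD4 T and dendritic cells, beside 1.62%, 0.568%, 2.2% and 5.03% of all genes tested. The counts of the next 3 lists stand in the same order and against the same shares, and nothing is read from counts of 0 or 1. Of 15 ligand genes 7 were in at least 5% of NK cells (H2-T23, H2-K1, H2-D1, Clec2d, Clec2i, Cdh1 and Cd48) and 0 were called against any class. Of 8 maturation genes, 6 reached that share (Cd27, Itgam, Zeb2, Klrg1, Tbx21 and Eomes), and 1, 0, 1 and 5 were called. Of 8 genes of group 1 innate lymphoid cells and residency, 6 did (Itga1, Tnfsf10, Inpp4b, Gpr183, Rora and Il7r), and 0, 0, 1 and 5 were called.

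The genes whose levels across 63 units (a class in 1 library, 7 classes) were most like the mean of the 10 genes on the log2(CPM + 1) scale were Qrfp (Pearson's r = 0.879), Styk1 (0.871), Nrarp (0.868), Gzma (0.867), Gzmc (0.862), Klrb1f (0.859), Klra9 (0.852), Sult2b1 (0.843), Klra3 (0.843) and Khdc1a (0.842). Styk1 and Gzma were part of the NK gate, and units of 1 class or library are not independent. Among the 10 genes, Klrb1c and Klra8 were most alike (r = 0.937), Klra1 was nearest to Klra7 (0.898), and Klrd1 was nearest to Klre1 (0.841). Klrc1 was least like Ncr1 (0.421).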

How the data were processed

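CD45+ cells of 12 tumors were measured by 10x Genomics 3' RNA-Seq. The authors deposited 1 matrix of raw UMI counts, not normalized, with replicates pooled. The submitters' processing notes name Cell Ranger 2.1.1, Seurat and mm10, and the matrix header names Cell Ranger 3.0.2. All 12 libraries were analysed, and 0 columns were left unused. A barcode was kept if its gene number lay above 200 and below 5000 and if mitochondrial genes gave no more than 10% of its UMIs. No doublet caller was run, and an alternative left out the 5% of cells with the most UMIs. Shares carry Clopper-Pearson, levels Poisson and ratios conditional binomial 95% intervals, which cover counting error only. A count of 0 was read as allowing up to 3 UMIs or cells. In the calls, any lower count in the other class was also set to 3 UMIs. Thinned shares to 1000 UMIs came from the hypergeometric expectation, or from 1 random draw (seed 7) where cells were grouped again. Scripts in Python 3.11.15 (scipy 1.17.1, numpy 2.4.6, pandas 2.3.3) were tested on simulated data. The text names all 10 genes, the list genes in at least 5% of NK cells and the 10 genes most alike. It also names Klra17, Cxcr6, Cma1, S1pr5 and Itgae where a call or comparison covered them, whatever their share of NK cells. The genes, lists and gates were chosen with earlier results of these data known. The cells with and without Trbc UMIs, and residency genes in them, Ly49 genes by Klrc1, Y-linked libraries and barcodes with matrix genes were compared after the data were seen, and the shares over all genes and pairs were added then.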

Additional observations from a re-analysis of the deposited data

Results flagged for a closer look

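Klra4 was also found in barcodes outside the classes compared above. Among 356 barcodes with no UMI of Ptprc, the gene of CD45, and with UMIs of the matrix genes Sparc and Serpinh1, 148 had a UMI of Klra4 (41.6%, 36.4 to 46.9%). This set was chosen after values were seen, and 154 of its barcodes had been removed by the limits on genes and mitochondrial UMIs. Median depth was 11972.5 UMIs, against 2012 in NK cells, and the level of Klra4 was 84.9 CPM (78.5 to 91.8), below the 306.2 CPM in NK cells (280.3 to 333.8). Over the 7 libraries with at least 20 such barcodes the share was 26.4% at the lowest, 39.1% at the median and 65.2% at the highest. Klra4 was in 0.667% of the other kept barcodes and 0.598% of macrophages. In the 356 barcodes Ncr1, Klra1, Klra7, Klra8, Klre1 and Klrc1 had 0 UMIs, Klrb1c was in 1, Klrk1 in 12 (3.37%) and Klrd1 in 5. Rhox5 was in 73.3%, Tm4sf1 in 70.2% and Col1a1 in 61.8% of them, while 0, 1 and 2 of the 624 NK cells had a UMI of these genes. Of all Klra4 UMIs, 33.7% lay in removed barcodes, where the other 9 genes ranged from 2.24 to 6.93%. Of these 916 removed Klra4 UMIs, 394 lay in barcodes of this set. The other 522 lay in removed barcodes outside it, where 1.51% of barcodes had a Klra4 UMI (4.28 CPM).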

How the results depend on the processing

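The number of genes at least 4 times higher in NK cells stayed at 6 against CD8 T cells, 9 against CD4 T cells and 9 against dendritic cells without any single library, and was 4 to 7 (5 with all) against gamma delta T cells, where a limit of 8-fold left 3. Without single libraries it was 2 to 3 (2 with all) for CD8 T against CD4 T cells and 5 to 6 (6 with all) for dendritic cells against macrophages, an alternative chosen after seeing the data. The share of NK cells with at least 2 of the genes, 67.0% at 1000 UMIs, was 58.2% with 1 further NK gene asked for, 59.7% with only Cd3d, Cd3e and Cd3g at 0, 56.5% with no limit on myeloid genes, 40.8% at 500 UMIs, 83.2% at 2000 UMIs and 86.7% with no thinning, and from 65.3 to 74.4% without single libraries (74.4% without library 6). The pairs found together more often numbered 36 to 40 without single libraries (38 with all). The Ly49 difference with Klrc1, -15.2 points, was -4.33 with Trbc1 and Trbc2 at 0 and from -25.0 to -12.5 without single libraries. The Klrc1 ratio of NK to CD4 T cells went from 2.75 to 0.845 (0.683 to 1.05), an interval that includes 1, when NK cells were gated on at least 2 of the other 9 genes. Values of single genes also moved. In settings other than the loss of 1 library, 36 of 90 shares of NK cells left the interval of the main value. So did 26 of 100 thinned shares. Of 100 ratios of NK cells each, 25 did against CD8 T and 23 against dendritic cells. Against CD4 T cells 21 did besides that of Klrc1, and against gamma delta T cells 11 of 90. Without single libraries, 8 of 120 shares, 2 of 120 thinned shares and 4 to 7 of 120 ratios per class did. The causes were not tested. A median over libraries could not be given for gamma delta T cells, since no library had 20 of them. No paired analysis was possible because GEO's labels tie the library numbers to no mouse or group. The 60 gamma delta T cells limit what could be detected in that class.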
